A study of Mus musculus with 9 samples.

Results

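The 42 genes described here belong to the integrated stress response around ATF4, to the cytosolic aminoacyl-tRNA synthetases and to the unfolded protein response of the endoplasmic reticulum (ER). They were chosen by name from knowledge of these pathways, but with earlier results of these data known. They sort into 3 role groups: 11 genes of the eIF2 kinase and ATF4 axis, 20 cytosolic tRNA synthetases, and 11 ER chaperones and unfolded protein response genes. All 42 had a row among the 23420 genes counted, and 41 had enough reads to be tested among 13020 genes. Phgdh, which catalyses the first committed step of serine synthesis, had 1 to 9 reads per library and was not tested.

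The livers came from 9 wild-type C57BL/6 male mice, 3 per diet, and the study asked how dietary iron alters the liver. From 5 weeks of age the mice ate a soy-free purified diet (AIN-93G) for 50 days. The low-iron diet held 2.5 mg of iron per kg, the sufficient diet 37.5 mg and the high-iron diet 1000 mg, and livers were taken at 12 weeks of age. The study's title also names a genetic model of iron overload, which was not analysed here. Each library is 1 mouse, named below by its diet and the number in its label: low-iron 1, 5 and 9, sufficient-iron 2, 6 and 10, and high-iron 4, 8 and 12.

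When a cell is stressed, 1 of several kinases phosphorylates the translation factor eIF2, which lowers general protein synthesis and favours translation of the transcription factor ATF4. The kinase HRI, encoded by Eif2ak1, is held inactive by haem and is activated when haem runs short, which ties this pathway to iron. ATF4 raises transcription of genes for amino acid supply and of many tRNA synthetases, the enzymes that load amino acids onto tRNAs. The unfolded protein response is a related programme, in which sensors in the ER membrane raise the chaperones that fold secreted proteins, the main export of hepatocytes. ATF4 itself is controlled largely at the level of translation, so the level of its mRNA is not a measure of its protein.

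Levels are in CPM, the reads of a gene relative to the total gene reads of its library, after scaling for library composition by trimmed mean of M-values (TMM), and they are not corrected for gene length, so they are compared between libraries and not between genes. Differences are log2 fold changes ± SE from edgeR's quasi-likelihood fit to all 9 libraries, with Benjamini-Hochberg adjustment over the 13020 genes, and a gene is called when its adjusted p is under 0.05. The libraries held 22.0 M to 33.8 M gene reads. Ribosomal RNA (Rn45s) took 43.7% of the gene reads in low-iron 1 and 40.5% in high-iron 12, against 12.5% to 23.8% in the other 7. On the first principal component, which held 35.8% of the variance, low-iron 1 lay at -51.8 and sufficient-iron 6 at 41.2, with the other 7 libraries between -15.0 and 13.1. Alb, the albumin gene and a defining hepatocyte marker, was at 35159 to 55105 CPM in all 9 libraries.

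With edgeR, 1 of the 41 tested members was called in any comparison. Aars, the alanyl-tRNA synthetase, fell in high-iron against low-iron livers. In that comparison edgeR called 66 of all tested genes, or 0.507%, limma-voom called the same 1 member, DESeq2 called 5 (Aars, Calr, Hsp90b1, Mars and Trib3), and limma-voom with sample weights called 3 (Aars, Calr and Hsp90b1). Of all 13020 tested genes, DESeq2 called 120 higher and 245 lower with high iron, limma-voom 22 and 42, and sample weights 132 and 246. In high-iron against sufficient-iron livers edgeR called 0 members against 28 of all genes (0.215%), with 5 members at an unadjusted p under 0.05, where 9.28% of all genes were, and 0 members called by DESeq2 or by limma-voom with or without sample weights. In low-iron against sufficient-iron livers edgeR called 0 genes of any kind (0%), with 2 members at an unadjusted p under 0.05, where 11.2% of all genes were. The other tools again called 0 members. DESeq2 gave no adjusted p there to at least Trib3, Atf3, Eif2ak1, Eif4ebp1, Sesn2, Asns, Atf4, Mars, Rars, Eprs, Sars and Cars. It could not have called those members in that comparison. In the 3-group test edgeR called 28 genes (0.215%) and 0 members, while 6 members (Trib3, Aars, Mars, Rars, Calr and Hsp90b1) had an unadjusted p under 0.05, a threshold that 10.7% of all genes passed. In that test DESeq2 called 3 members (Aars, Calr and Trib3), limma-voom 0, and limma-voom with sample weights 2 (Aars and Calr). DESeq2 and sample weights also called more genes of any kind there than edgeR, with the totals given in the last section. The 3 pairwise comparisons share their libraries, so their values are given side by side and are not independent of each other.

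**Figure D1:**
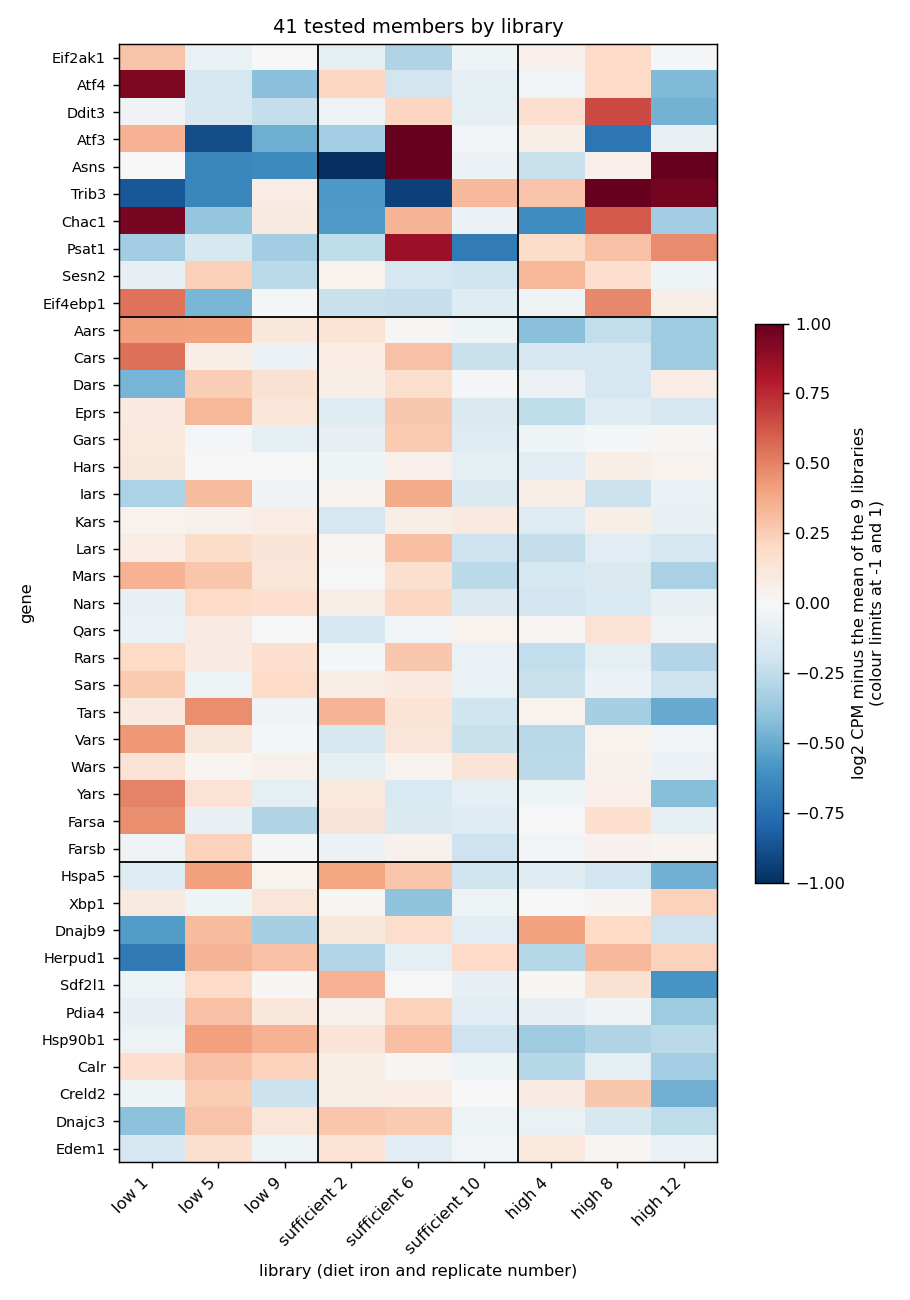
Heat map of the 41 tested members (y axis) in the 9 libraries (x axis, grouped by diet). Colour is log2 CPM relative to that gene's mean over the 9 libraries. Most synthetases sit below their mean in the 3 high-iron libraries, while members of the ATF4 axis vary between single libraries, with high values in low-iron 1 and sufficient-iron 6.

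The cytosolic tRNA synthetases held the only member that edgeR called, and 19 of the 20 lay below 0 in high-iron minus low-iron livers. Aars (chromosome 8, 111033144 to 111057664, plus strand, GENCODE M21 on GRCm38) was at 185, 183 and 151 CPM in low-iron 1, 5 and 9. It was at 153, 140 and 135 CPM in sufficient-iron 2, 6 and 10, and at 104, 117 and 109 CPM in high-iron 4, 8 and 12. All 3 high-iron livers lay below the other 6, and the low-iron and sufficient-iron livers overlapped. The group means were 173 ± 19.5 CPM with low iron, 143 ± 9.14 CPM with sufficient iron and 110 ± 6.57 CPM with high iron (SD, n = 3 each). Aars fell by 0.65 ± 0.12 on the log2 scale from low to high iron (edgeR adjusted p = 0.0432), the 58th lowest p of the comparison. Its high-iron minus sufficient-iron difference was -0.37 ± 0.12 (adjusted p = 0.359) and its low-iron minus sufficient-iron difference was 0.28 ± 0.12 (adjusted p = 0.446), so neither step alone passed.

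The Aars call lay close to the threshold. Of 20 other ways of fitting, 10 kept it, and its log2 fold change stayed between -0.74 and -0.59. The call was lost without low-iron 1 (adjusted p = 0.0558), low-iron 5 (0.137), low-iron 9 (0.0761), sufficient-iron 2 (0.0602), sufficient-iron 10 (0.0656), high-iron 4 (0.205), high-iron 8 (0.139) or high-iron 12 (0.186), with low-iron 1 and high-iron 12 both left out (0.123), and with only the 6 libraries of these diets (0.0738). It held without sufficient-iron 6 (0.0415). Of the Aars exon bases, 15.1% are shared with another annotated gene (Exosc6 or Gm24103), so reads there could not be assigned to Aars alone.

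The promoter of Aars, the 1 member that edgeR called, is shown. Upstream of the start site it holds the C/EBP-ATF response element (letters TGATGNAA, searched on both strands). ATF4 and C/EBP factors are known to bind this motif. Gars and Tars also hold a match upstream of their start sites. The RefSeq promoter table (GRCm38.p6) covers 250 bases before to 50 after each start site and gave 34 promoters for 33 of the 42 members. The stretch lies at chr8:111033725-111033742, bases -117 to -100 from the RefSeq start site, on the gene's strand, with the motif in capitals as its reverse complement. In GENCODE this stretch falls inside an Aars exon.
Aars: gagcaTTGCATCAgccga
This letter match is a description and does not show binding. A second match in Aars lies 10 to 17 bases after the start site. Cars, Hars, Lars, Mars, Nars, Rars, Vars and Wars had no promoter entry and were not searched. Matches were found in 5 of 12 synthetase promoters (41.7%: Aars, Gars, Iars, Tars and Yars), in 4 of 11 promoters of the ATF4 axis (36.4%: Atf3, Asns, Trib3 and Chac1), in 1 of 11 ER promoters (9.09%: Herpud1) and in 3.97% of all 32851 promoters of the table.

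The other synthetases leaned the same way by smaller amounts. In high-iron minus low-iron livers 19 of the 20 were below 0, Qars (glutamine) being the exception at 0.04 ± 0.10, and their median was -0.25, against 51.2% of all tested genes below 0 and a median of -0.01 over all tested genes. At an unadjusted p under 0.05, 8 of 20 were lower (Aars, Cars, Eprs, Lars, Mars, Rars, Sars and Tars) and 0 higher, against 5.44% and 4.22% of all genes. The high-iron and low-iron livers did not overlap for 7 of the 20 (the same genes without Tars), all lower with high iron, against 8.15% of all genes lower and 7.59% higher without overlap. These 20 genes were chosen as a family with earlier results of these data known, and no test was made of the family as a whole. The number below 0 stayed at 16 to 19 of 20, and the number lower at an unadjusted p under 0.05 at 4 to 8, with each library left out in turn. It was 16 and 6 without low-iron 1 and 18 and 4 without high-iron 12.

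Both diets were also set against sufficient iron. In high-iron minus sufficient-iron livers 16 of 20 were below 0, against 51.9% of all genes, with a median of -0.15. Aars and Rars were lower at an unadjusted p under 0.05, where 5.12% of all genes were, and both were also lower without overlap, where 8.85% of all genes were. The number lower at an unadjusted p under 0.05 was 6 without sufficient-iron 10, and 1 without sufficient-iron 6, low-iron 9 or high-iron 12. The median was -0.079 without sufficient-iron 6 and -0.21 without sufficient-iron 10, its extremes with 1 library left out. In low-iron minus sufficient-iron livers 3 of 20 were below 0 (Dars, Gars and Iars), against 50.6% of all genes, with a median of 0.08. The count was 1 without sufficient-iron 6, 2 without low-iron 9, 5 without sufficient-iron 2 and 6 without sufficient-iron 10, and the median ran from 0.046 without sufficient-iron 10 to 0.13 without sufficient-iron 6. Aars alone was higher there at an unadjusted p under 0.05, against 5.79% of all genes. The median SE of a synthetase's log2 fold change was 0.12, so most of these single differences are within 2 SE of 0.

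Mars, the methionyl enzyme, had the second lowest 3-group p of the family. It was at 53.0, 50.4 and 45.1 CPM with low iron, 41.6, 46.5 and 34.5 CPM with sufficient iron and 36.8, 37.7 and 33.3 CPM with high iron. Every high-iron liver lay below every low-iron liver, and the high-iron minus low-iron difference was -0.46 ± 0.13 (edgeR adjusted p = 0.175). DESeq2 gave an adjusted p of 0.0481 for it. Mars shares 1.99% of its exon bases with Ddit3, its neighbour on chromosome 10.

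Rars, which charges arginine tRNA, was at 24.9, 23.0 and 24.3 CPM with low iron and at 21.5, 26.1 and 20.7 CPM with sufficient iron. It was at 18.3, 20.2 and 17.7 CPM with high iron, below all 6 other livers. Its difference was -0.36 ± 0.12 from low iron (edgeR adjusted p = 0.283) and -0.28 ± 0.12 from sufficient iron (adjusted p = 0.517). Eprs, which charges both glutamate and proline tRNAs, was at 84.5, 99.6 and 85.9 CPM with low iron, 72.7, 95.5 and 71.6 CPM with sufficient iron and 66.3, 72.2 and 70.3 CPM with high iron. The high-iron livers lay below the low-iron livers and overlapped the sufficient-iron livers (high-iron minus low-iron -0.37 ± 0.13, edgeR adjusted p = 0.350).

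Sars, the seryl enzyme, was at 44.5, 36.0 and 42.5 CPM with low iron, 38.7, 39.8 and 35.6 CPM with sufficient iron and 31.9, 35.7 and 32.2 CPM with high iron. Its highest high-iron liver lay just under its lowest low-iron liver (high-iron minus low-iron -0.30 ± 0.11, edgeR adjusted p = 0.375). Cars, the cysteinyl enzyme, was at 32.8, 23.4 and 21.5 CPM with low iron, 23.6, 27.4 and 19.2 CPM with sufficient iron and 19.9, 19.9 and 17.5 CPM with high iron. Low-iron 1 stood well above the other livers for Cars: the high-iron minus low-iron difference was -0.43 ± 0.18 with it (edgeR adjusted p = 0.451) and -0.22 without it.

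The remaining 14 synthetases ranged in high-iron minus low-iron livers from -0.44 ± 0.19 for Tars (threonine) to 0.04 for Qars. Lars (leucine) was at -0.30 ± 0.13 with no overlap, Yars (tyrosine) at -0.32 ± 0.17, Vars (valine) at -0.27 ± 0.15 and Nars (asparagine) at -0.24 ± 0.12. Wars (tryptophan) was at -0.16 ± 0.12 and Kars (lysine) at -0.10 ± 0.10. Iars (isoleucine), Dars (aspartate), Hars (histidine), Gars (glycine) and both subunits of the phenylalanyl enzyme, Farsa and Farsb, lay between -0.08 and -0.02. The lowest adjusted p among these 14 in that comparison was 0.489, for Tars.

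**Figure D2:**
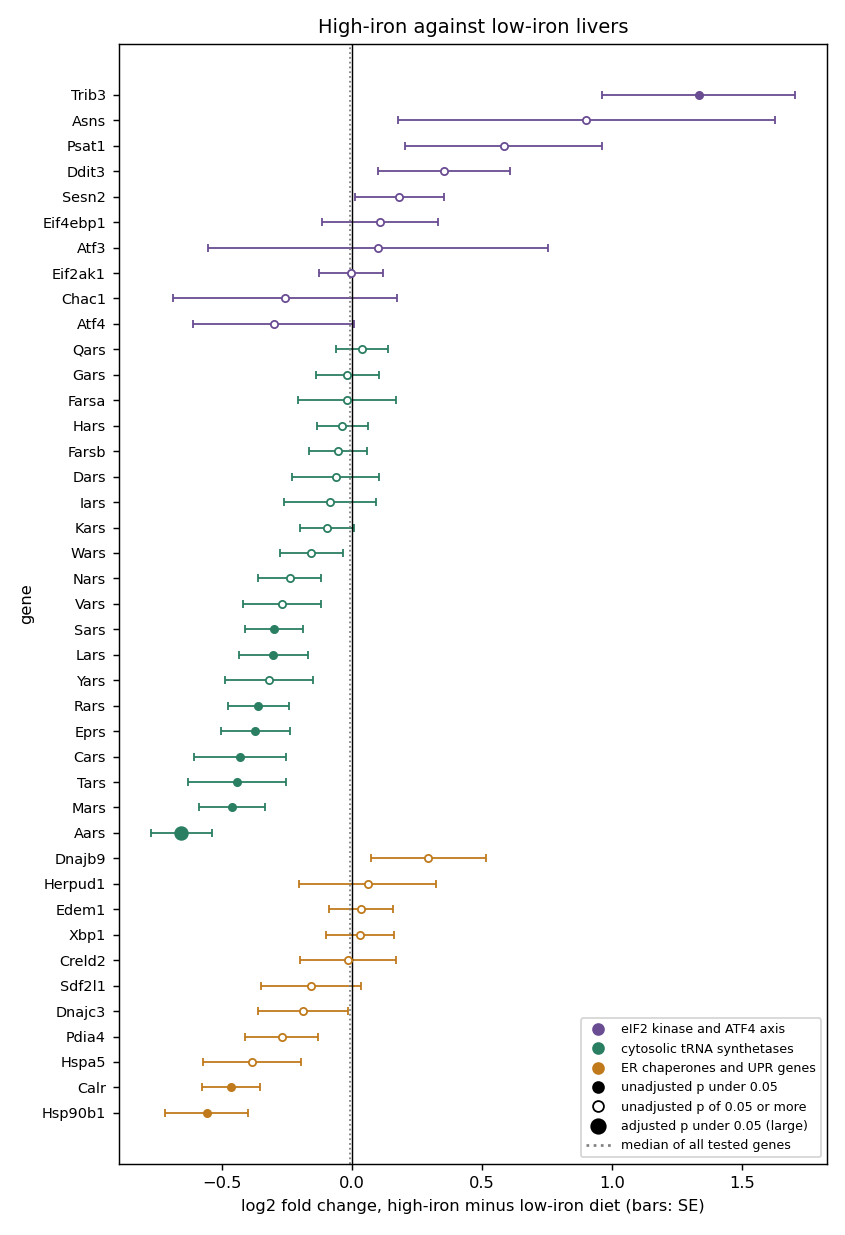
Log2 fold change, high-iron minus low-iron livers (x axis), of the 41 tested members (y axis), ordered within their role groups. Points are edgeR estimates and bars are SE (n = 3 per diet). The synthetases lie left of 0 except Qars, with Aars farthest left at -0.65, and Trib3 of the ATF4 axis lies farthest right at 1.33.

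Among the ER genes, Calr, Hsp90b1 and Hspa5 had the lowest p-values in the 3-group test. None passed after adjustment in edgeR, and Calr passed in DESeq2 and in limma-voom with sample weights. Calr, the calcium-binding lectin chaperone calreticulin (chromosome 8, 84841850 to 84846934, minus strand), was at 526, 574 and 550 CPM with low iron, 491, 472 and 451 CPM with sufficient iron and 384, 441 and 371 CPM with high iron. It was the only member whose 3 diets were fully separated from each other, low iron above sufficient and sufficient above high. Its means were 550 ± 24.1, 471 ± 19.8 and 399 ± 37.5 CPM (SD, n = 3). The difference was -0.46 ± 0.11 from low to high iron (edgeR adjusted p = 0.111), -0.24 ± 0.11 from sufficient to high iron (0.541) and 0.22 ± 0.11 for low-iron minus sufficient-iron livers (0.463). Over 20 other fits the first of these ranged from -0.54 to -0.41, with adjusted p between 0.000518 (DESeq2) and 0.399.

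Hsp90b1, which encodes the HSP90 paralog of the ER (GRP94; chromosome 10, 86690209 to 86705509, minus strand), was at 428, 591 and 563 CPM with low iron and 486, 546 and 384 CPM with sufficient iron. It was at 347, 360 and 369 CPM with high iron, below all 6 other livers. Its mean was 527 ± 87.4 CPM with low iron and 358 ± 10.95 CPM with high iron (SD, n = 3). The high-iron minus low-iron difference was -0.56 ± 0.16 (edgeR adjusted p = 0.192), and the high-iron minus sufficient-iron difference was -0.40 ± 0.16 (0.508). The first passed with DESeq2, with limma-voom under sample weights, and with low-iron 1 and sufficient-iron 6 left out, with a lowest adjusted p of 0.0160.

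Hspa5 encodes BiP, the HSP70 of the ER that also holds the stress sensors inactive. It was at 429, 624 and 480 CPM with low iron, 615, 567 and 408 CPM with sufficient iron and 430, 409 and 337 CPM with high iron. The diets overlapped in every pair, and the high-iron differences were -0.43 ± 0.19 from sufficient iron (edgeR adjusted p = 0.530) and -0.38 ± 0.19 from low iron (0.564). Dnajc3, an inhibitor of the eIF2 kinase PERK and a co-chaperone of BiP, was at 142, 231 and 206 CPM with low iron, 229, 227 and 183 CPM with sufficient iron and 181, 170 and 159 CPM with high iron. Its high-iron livers lay below its sufficient-iron livers by a narrow margin (-0.33 ± 0.17, edgeR adjusted p = 0.591) and overlapped the low-iron livers. Pdia4, a protein disulfide isomerase, was at 123, 159 and 140 CPM with low iron, 133, 152 and 120 CPM with sufficient iron and 122, 126 and 101 CPM with high iron, with overlap throughout (high-iron minus low-iron -0.27 ± 0.14, edgeR adjusted p = 0.597).

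Xbp1, the transcription factor that the sensor IRE1 activates by splicing, differed little between low and high iron. It was at 159, 145 and 163 CPM with low iron, 151, 113 and 145 CPM with sufficient iron and 150, 153 and 176 CPM with high iron. Its high-iron minus low-iron difference was 0.03 ± 0.13 and its high-iron minus sufficient-iron difference was 0.23 ± 0.13 (edgeR adjusted p = 0.964 and 0.612). Gene-level counts do not show how much of the Xbp1 mRNA was spliced. The other 5 genes of this group, which serve folding and ER-associated degradation, lay between -0.16 ± 0.19 (Sdf2l1) and 0.29 ± 0.22 (Dnajb9) in high-iron minus low-iron livers. Herpud1 was at 0.06 ± 0.26, Edem1 at 0.04 ± 0.12 and Creld2 at -0.02 ± 0.18.

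Over the 11 ER genes, 7 were below 0 in high-iron minus low-iron livers with a median of -0.16, 7 in high-iron minus sufficient-iron livers with a median of -0.19, and 6 in low-iron minus sufficient-iron livers with a median of -0.02. Of all tested genes, 51.2%, 51.9% and 50.6% were below 0 in these comparisons, so the counts of ER genes below 0 are near the background. At an unadjusted p under 0.05 Calr and Hsp90b1 were lower from low to high iron, where 5.44% of all genes were, and Hsp90b1 and Hspa5 from sufficient to high iron, where 5.12% were. All 3 medians moved with single libraries. The high-iron minus low-iron median was -0.037 without high-iron 12, -0.038 without low-iron 5 and -0.22 without high-iron 4 at its lowest. The high-iron minus sufficient-iron median was -0.0087 without high-iron 12, -0.053 without sufficient-iron 2, -0.12 without sufficient-iron 6 and -0.28 without sufficient-iron 10 at its lowest. The low-iron minus sufficient-iron median ran from -0.11 without low-iron 5 to 0.055 without sufficient-iron 2. High-iron 12 was the lowest library for 5 of the 11 genes, low-iron 1 for 4, and low-iron 5 was the highest for 7.

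The promoters of Calr, Hsp90b1 and Hspa5 are shown because these chaperones had the lowest p-values of their group and carry the ER stress response element, which ATF6 and the general factor NF-Y are known to bind (CCAAT, any 9 bases, then CCACG, searched on both strands, in capitals). All are RefSeq sequences (GRCm38.p6) on the gene's strand. Calr lies at chr8:84847045-84847123 (minus strand, bases -192 to -114 from the start site), Hsp90b1 at chr10:86705528-86705661 (minus strand, bases -217 to -84) and Hspa5 at chr2:34772020-34772048 (plus strand, bases -70 to -42). The Hspa5 stretch falls inside an Hspa5 exon in GENCODE.
Calr: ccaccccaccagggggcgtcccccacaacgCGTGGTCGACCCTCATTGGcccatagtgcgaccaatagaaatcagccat
Hsp90b1: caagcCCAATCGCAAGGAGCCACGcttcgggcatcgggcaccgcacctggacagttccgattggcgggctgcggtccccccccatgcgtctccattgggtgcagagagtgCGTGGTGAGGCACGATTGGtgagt
Hspa5: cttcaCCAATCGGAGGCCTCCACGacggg
The Calr element reads as its reverse complement, and Hsp90b1 holds 1 copy in each orientation. The motif was found in 5 of 11 ER promoters (45.5%: Hspa5, Hsp90b1, Calr, Creld2 and Dnajc3), in 0 of the synthetase and ATF4-axis promoters and in 0.119% of all promoters (39 of 32851). From low to high iron these 5 genes differed by -0.56 (Hsp90b1), -0.46 (Calr), -0.38 (Hspa5), -0.19 (Dnajc3) and -0.02 (Creld2). A relation between the element and these differences was not tested.

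**Figure D3:**
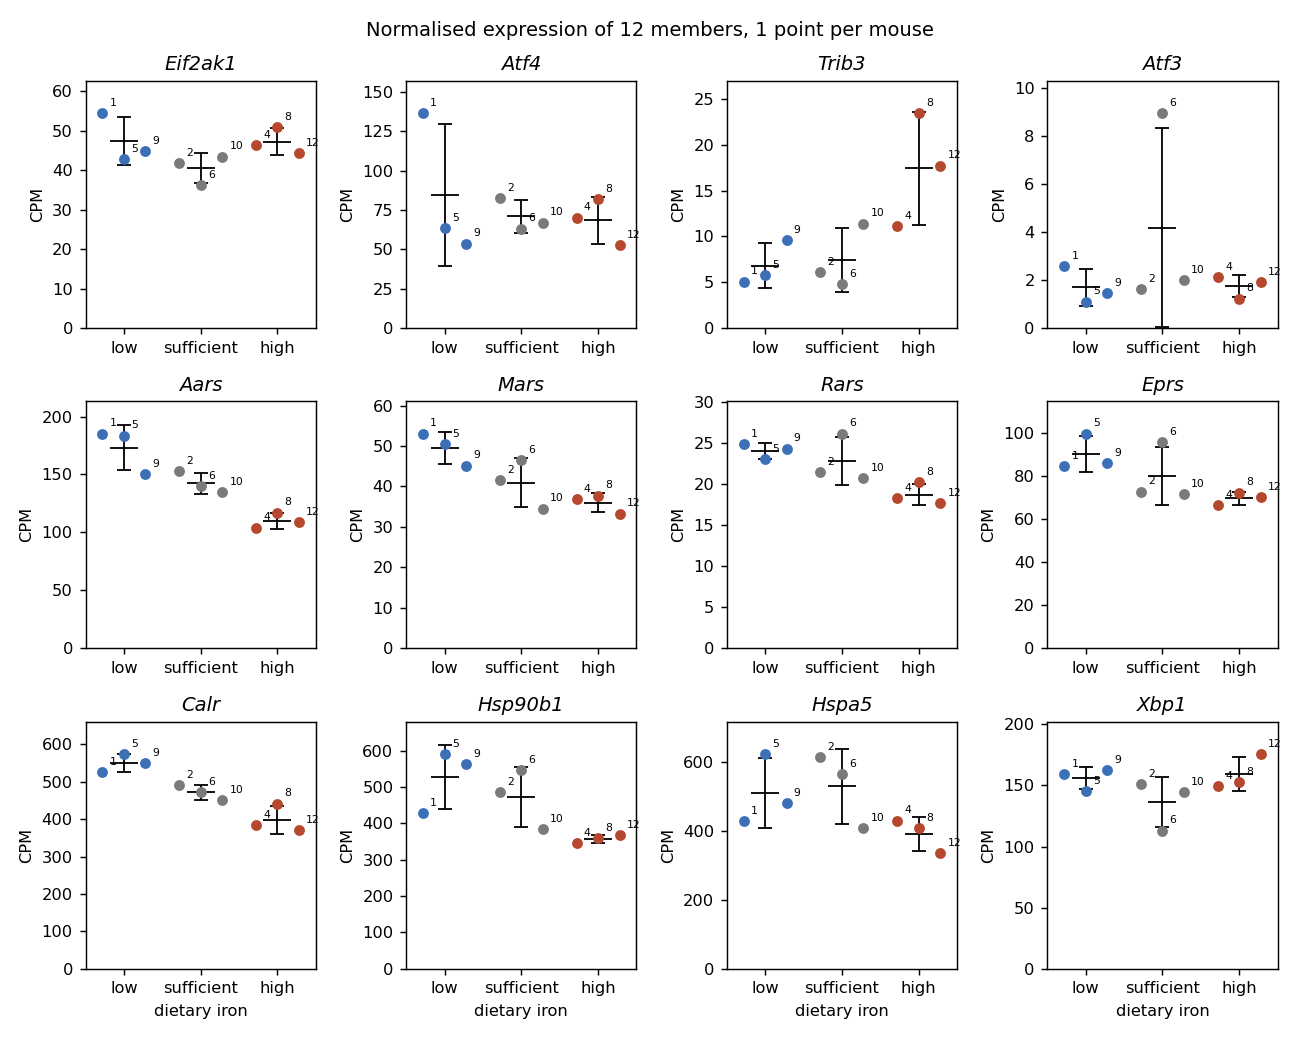
Expression in CPM (y axis, from 0) by dietary iron (x axis) for 12 members, with 1 numbered point per mouse, a line at the mean and bars of SD (n = 3 per diet). Aars and Calr step down from low to sufficient to high iron, Trib3 is highest in the high-iron livers, and Atf4 and Atf3 each have 1 library far above the rest.

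In the eIF2 kinase and ATF4 axis edgeR called no gene, DESeq2 called Trib3 from low to high iron and in the 3-group test, and the single-library spread was larger than in the other groups: the median SE of a log2 fold change was 0.33 to 0.34 here, against 0.12 for synthetases and 0.17 for ER genes. Eif2ak1, the haem-regulated kinase (chromosome 5, 143817788 to 143904251, plus strand), was at 54.5, 42.9 and 44.9 CPM with low iron, 41.8, 36.3 and 43.5 CPM with sufficient iron and 46.3, 51.0 and 44.3 CPM with high iron. The sufficient-iron livers had the lowest mean, 40.5 ± 3.76 CPM, against 47.4 ± 6.19 CPM with low iron and 47.2 ± 3.44 CPM with high iron (SD, n = 3). They lay below all high-iron livers, as 8.99% of all tested genes did, and overlapped the low-iron livers (high-iron minus sufficient-iron 0.22 ± 0.12, edgeR adjusted p = 0.605; low-iron minus sufficient-iron 0.22 ± 0.12, 0.479). High-iron minus low-iron was -0.00 ± 0.12. Eif2ak1 shares 11.6% of its exon bases with Aimp2 and Ankrd61 on the opposite strand, and whether the authors' counting used strand is not given in the sources used here. Eif2ak1 is abundant in red cell precursors, so blood markers were checked: the globin genes Hba-a1, Hba-a2, Hbb-b1 and Hbb-b2 are listed at 0 in every library, and Slc4a1, the red cell anion exchanger, was at 0.0334 to 0.312 CPM. Alignments that were not unique were counted apart from genes, at 27.5 M to 55.0 M per library. Whether globin reads were among them was not tested, so the globin zeros are not read as absence of blood RNA. The only one of the 9 blood markers tested was Alas2, the erythroid enzyme of haem synthesis. It fell by 1.58 on the log2 scale from low to high iron (edgeR adjusted p = 0.0113). The summed level of the 9 was 87.3 to 126 CPM with low iron. It was 62.6 to 81.8 CPM with sufficient iron and 28.4 to 38.5 CPM with high iron. Alas2 makes up nearly all of this sum (86.9 of 87.3 CPM in low-iron 1), so the sum adds no separate measure of blood RNA. The part of red cell precursors in the Eif2ak1 level was not tested.

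Atf4 (chromosome 15, 80255184 to 80257541, plus strand) was at 137, 63.5 and 53.6 CPM with low iron, 82.8, 63.2 and 67.1 CPM with sufficient iron and 70.2, 82.0 and 52.9 CPM with high iron. Low-iron 1 lay far above the other 8 libraries, which overlapped between diets. Each difference was smaller than its SE: high-iron minus low-iron was -0.30 ± 0.31 (edgeR adjusted p = 0.820) and turned to 0.23 without low-iron 1, and low-iron minus sufficient-iron was 0.25 ± 0.31 (0.740) and turned to -0.29 without it. Low-iron 1 is also the library richest in Rn45s and poorest in Kupffer cell markers, and the part of either in its Atf4 level was not tested.

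Trib3, the pseudokinase that ATF4 induces and that restrains it in turn (chromosome 2, 152337422 to 152344032, minus strand), had the widest difference among the 41 in high-iron minus low-iron livers. It was at 5.07, 5.82 and 9.59 CPM with low iron, 6.12, 4.79 and 11.4 CPM with sufficient iron and 11.1, 23.5 and 17.7 CPM with high iron. The high-iron livers lay above all low-iron livers, and high-iron 4 fell just under sufficient-iron 10. The means were 6.82 ± 2.42, 7.44 ± 3.50 and 17.4 ± 6.17 CPM (SD, n = 3). The difference was 1.33 ± 0.37 from low to high iron (edgeR adjusted p = 0.181) and 1.23 ± 0.36 from sufficient to high iron (0.304). Across 20 other fits the first stayed between 0.87 and 1.67 and passed in 1 of them (DESeq2, adjusted p = 0.0160). Trib3 was the 1 member higher with high iron at an unadjusted p under 0.05 in both comparisons, a threshold that 4.16% of all genes passed against sufficient iron.

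No other gene of this axis had an unadjusted p under 0.05 in either high-iron comparison. Ddit3, which encodes the stress factor CHOP, was at 2.94 to 6.45 CPM, with a high-iron minus low-iron difference of 0.36 ± 0.25 (edgeR adjusted p = 0.716). It shares 4.73% of its exon bases with Mars and Gm4189. Chac1, a glutathione-degrading enzyme, was at 0.836 to 2.50 CPM, with its highest value in low-iron 1 (-0.26 ± 0.43, adjusted p = 0.893). Psat1, of serine synthesis, was at 1.09, 1.24 and 1.09 CPM with low iron, 1.17, 2.51 and 0.855 CPM with sufficient iron and 1.57, 1.70 and 1.92 CPM with high iron. Its high-iron and low-iron livers did not overlap, but the difference was within 2 SE (0.58 ± 0.38, adjusted p = 0.688).

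Eif4ebp1, the 4E-BP1 repressor of cap-dependent translation, was at 42.9, 21.4 and 29.2 CPM with low iron, 25.2, 25.0 and 27.0 CPM with sufficient iron and 28.6, 40.96 and 30.6 CPM with high iron. Its high-iron livers lay above its sufficient-iron livers (0.37 ± 0.22, edgeR adjusted p = 0.615). Sesn2, a leucine sensor that restrains mTORC1, was at 6.01, 7.54 and 5.29 CPM with low iron, 6.52, 5.64 and 5.55 CPM with sufficient iron and 8.03, 7.14 and 6.20 CPM with high iron, with overlap in every pair (high-iron minus sufficient-iron 0.28 ± 0.17, edgeR adjusted p = 0.627).

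The differences of Atf3 and Asns from sufficient iron depended on 1 library. Atf3, a stress-induced transcription factor, was at 2.57, 1.10 and 1.44 CPM with low iron, 1.60, 8.95 and 1.99 CPM with sufficient iron and 2.11, 1.23 and 1.92 CPM with high iron. Sufficient-iron 6 was the high one, and Atf3 was the 1 member lower in low-iron minus sufficient-iron livers at an unadjusted p under 0.05 (-1.38 ± 0.62, edgeR adjusted p = 0.446, against 5.41% of all genes). Without sufficient-iron 6 the difference was -0.16, and the high-iron minus sufficient-iron difference went from -1.28 ± 0.60 to -0.05. Asns, the asparagine synthetase, was at 1.09, 0.695 and 0.705 CPM with low iron, 0.401, 3.68 and 1.05 CPM with sufficient iron and 0.936, 1.13 and 2.56 CPM with high iron. Its low-iron minus sufficient-iron difference of -1.13 ± 0.70 became 0.09, and its high-iron minus sufficient-iron difference of -0.23 ± 0.65 became 1.00, without sufficient-iron 6.

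The axis as a group had a median of 0.15 in high-iron minus low-iron livers, 0.17 in high-iron minus sufficient-iron livers and -0.00 in low-iron minus sufficient-iron livers, with 7, 7 and 5 of its 10 tested genes above 0. The other 3, 3 and 5 were below 0, against 51.2%, 51.9% and 50.6% of all genes. With 1 library left out, the first median ran from 0.070 without low-iron 9 to 0.41 without low-iron 1, and was 0.22 without high-iron 12. The second was 0.051 without high-iron 8, 0.056 without sufficient-iron 10, 0.10 without sufficient-iron 2 and 0.28 without sufficient-iron 6. The last ran from -0.18 without low-iron 1 to 0.12 without sufficient-iron 6. Over all 41 members, high-iron and sufficient-iron livers did not overlap for 2 higher (Eif2ak1 and Eif4ebp1) and 5 lower (Aars, Rars, Calr, Dnajc3 and Hsp90b1), against 8.99% and 8.85% of all genes. Low-iron and sufficient-iron livers did not overlap for 1 higher (Calr) and 0 lower, against 8.81% and 7.83% of all genes.

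In bulk tissue, fewer cells of a type and less RNA per cell cannot be told apart, and marker genes moved with these results. The 6 hepatocyte markers were all below 0 in high-iron minus low-iron livers (median -0.37, none called by edgeR, lowest adjusted p = 0.421), the same direction as the synthetases and chaperones. In high-iron minus sufficient-iron livers 3 of the 6 hepatocyte markers were below 0 and 3 above (median -0.07). Their summed level was 64481 to 72525 CPM with low iron, 50340.5 to 72070 CPM with sufficient iron and 47757 to 57315.5 CPM with high iron. The 11 Kupffer cell markers, of the resident liver macrophage, were all above 0 in high-iron minus low-iron livers (median 0.21) and all below 0 in low-iron minus sufficient-iron livers (median -0.71). They were also all below 0 in high-iron minus sufficient-iron livers (median -0.46), and edgeR called none of them. Their summed level was 131 to 306 CPM with low iron, 302 to 479 CPM with sufficient iron and 256 to 323 CPM with high iron, and low-iron 1 was the lowest library for 11 of 11. Plasma and B cell markers, whose cells are rich in ER chaperones, summed to 3.80 to 7.06 CPM, and the 12 pancreatic acinar markers summed to at most 0.566 CPM. The part of the hepatocyte and Kupffer cell markers in the differences above was not tested.

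**Figure D4:**
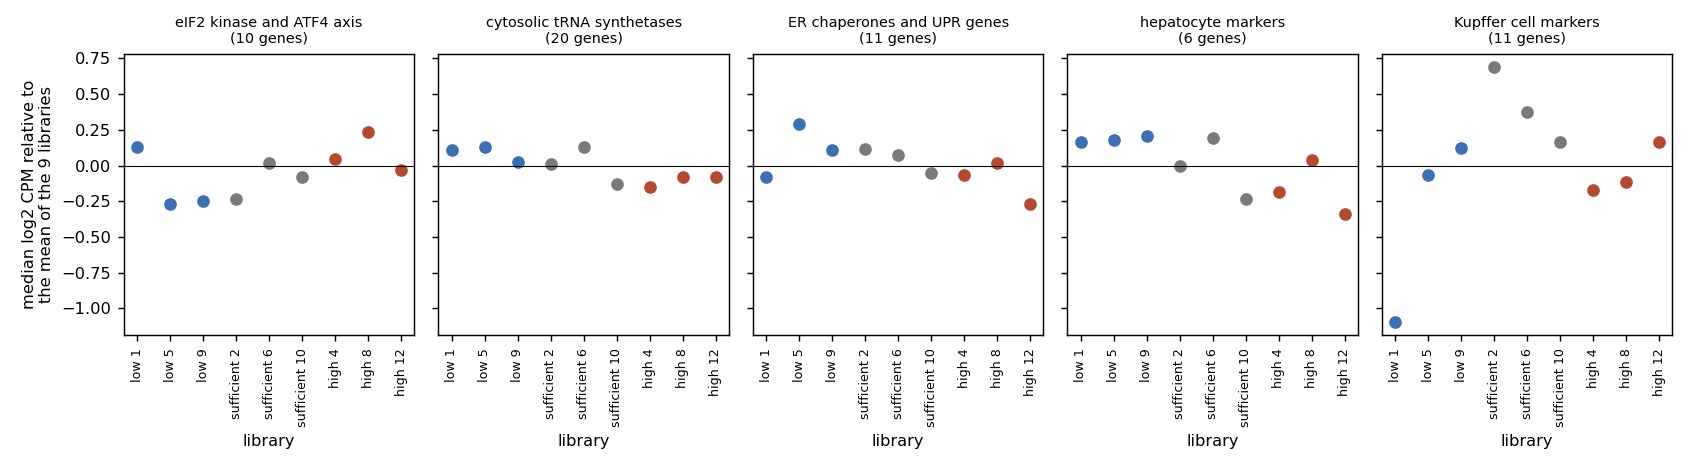
Median log2 CPM of each gene group relative to the mean of the 9 libraries (y axis) by library (x axis), for the 3 role groups and for hepatocyte and Kupffer cell markers. Blue is low, grey sufficient and red high iron. The synthetase medians lie below 0 in high-iron 4, 8 and 12 (-0.150, -0.079 and -0.082) and also in sufficient-iron 10 (-0.129). Hepatocyte markers lie lowest in high-iron 12, and Kupffer cell markers lie far below the rest in low-iron 1.

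Genes of the same pathways outside the 42 were read from 5 further lists with 89 tested genes. edgeR called 0 of the 89 in each comparison, with 9, 9 and 7 at an unadjusted p under 0.05 in high-iron minus sufficient-iron, low-iron minus sufficient-iron and high-iron minus low-iron livers. Of all tested genes 9.28%, 11.2% and 9.65% passed that threshold, so these counts are near the background. DESeq2 called 1 (Slc1a4, high-iron minus sufficient-iron), limma-voom called 0, and limma-voom with sample weights called 1 (Pdia3, high-iron minus low-iron). In low-iron minus sufficient-iron livers DESeq2 gave no adjusted p to any gene of the eIF2 machinery or multisynthetase scaffold lists.

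Of the 14 genes of the other eIF2 kinases and the eIF2 machinery, Eif2ak2 had the lowest 3-group p. It encodes PKR, the kinase activated by double-stranded RNA. Eif2ak2 was at 14.5, 18.6 and 18.5 CPM with low iron, 21.8, 27.4 and 22.4 CPM with sufficient iron and 19.8, 14.2 and 18.1 CPM with high iron. The sufficient-iron livers lay above all 6 others, with differences of -0.46 ± 0.16 for high iron and -0.47 ± 0.16 for low iron (edgeR adjusted p = 0.418 and 0.446). Eif2ak3, which encodes PERK, was at -0.37 ± 0.17 for high-iron and -0.33 ± 0.17 for low-iron minus sufficient-iron livers, with overlap. Eif2b2, a subunit of the exchange factor that phosphorylated eIF2 blocks, was at 0.24 ± 0.14 for low-iron minus sufficient-iron livers (adjusted p = 0.486).

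Of 23 other genes linked to ATF4, 21 were tested, and those with the lowest p-values were lower with high iron, where Trib3 was higher. Slc1a4, a transporter of alanine and serine, was at 8.50, 7.17 and 4.26 CPM with low iron, 8.75, 9.69 and 5.38 CPM with sufficient iron and 4.51, 3.87 and 2.56 CPM with high iron, which separated high iron from sufficient iron (-1.10 ± 0.30, edgeR adjusted p = 0.245). Fgf21, the liver hormone induced by fasting and stress, was at 13.8, 3.69 and 7.12 CPM with low iron, 4.85, 21.8 and 7.70 CPM with sufficient iron and 3.81, 3.46 and 3.10 CPM with high iron (high-iron minus sufficient-iron -1.73 ± 0.57, edgeR adjusted p = 0.400). The highest Fgf21 values were in sufficient-iron 6 and low-iron 1, the libraries that also held the highest Atf3 and Atf4. Nupr1, a stress-induced chromatin protein, was at -1.23 ± 0.46 and -1.39 ± 0.48 for high iron against sufficient and low iron, at 0.315 to 2.26 CPM. The median of the 21 genes was -0.22 in high-iron minus low-iron livers, with 13 below 0, against 51.2% of all genes.

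Of the 17 mitochondrial tRNA synthetases, 11 were below 0 in high-iron minus low-iron livers, against 51.2% of all genes, with a median of -0.09. In high-iron minus sufficient-iron livers 3 were below 0, against 51.9% of all genes, with a median of 0.06. In low-iron minus sufficient-iron livers 4 were below 0, against 50.6% of all genes. The other 13 of 17 were above 0 there and the median was 0.08, beside 17 of 20 and 0.08 for the cytosolic enzymes. The difference between these lists was not tested. Yars2 was at 15.8, 14.8 and 15.4 CPM with low iron, 13.6, 11.8 and 10.5 CPM with sufficient iron and 11.9, 13.1 and 12.1 CPM with high iron. Its low-iron livers lay above the other 6 (0.36 ± 0.12 against sufficient iron and -0.31 ± 0.12 for high-iron minus low-iron, edgeR adjusted p = 0.446 and 0.430). Fars2 was lowest with sufficient iron, at 17.8 to 20.1 CPM, against 23.3 to 26.3 CPM with low iron and 20.3 to 26.9 CPM with high iron. Sars2 was at 0.33 ± 0.15 for low-iron minus sufficient-iron livers. Lars2 reads took 3.47% to 11.6% of each library and were highest in the libraries richest in Rn45s. Lars2 was at 26974 to 199680 CPM, while the next highest gene of the list, Iars2, reached 70.4 CPM. Lars2 and Rn45s were set down as signs of ribosomal RNA carry-over, so the Lars2 reads are not taken as a measure of the synthetase mRNA. Lars2 is included in the counts and medians of the 17 genes above. The 3 scaffold genes of the multisynthetase complex, Aimp1, Aimp2 and Eef1e1, lay between -0.09 and 0.09 in high-iron minus low-iron livers.

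Among 34 other unfolded protein response sensors, chaperones and degradation genes, 28 were below 0 in high-iron minus low-iron livers and 27 in high-iron minus sufficient-iron livers, with medians of -0.15 in each, and 15 in low-iron minus sufficient-iron livers with a median of 0.02, against 51.2%, 51.9% and 50.6% of all genes. At an unadjusted p under 0.05 were 3, 1 and 2 of the 34 in the same order, against 9.65%, 9.28% and 11.2% of all genes. High-iron 12 was the lowest library for 11 of the 34 and low-iron 1 for 7. Relative to the mean of the 9 libraries, the median of the list was -0.11, 0.02 and -0.20 in high-iron 4, 8 and 12. Atf6, the sensor that acts through the ER stress response element, was at 76.0, 88.6 and 95.8 CPM with low iron, 93.6, 98.5 and 94.6 CPM with sufficient iron and 77.7, 75.2 and 77.1 CPM with high iron. Its high-iron livers lay below its sufficient-iron livers (-0.32 ± 0.11, edgeR adjusted p = 0.412) and overlapped low-iron 1. Sil1, the nucleotide exchange factor of BiP, was highest with low iron, at 49.9, 32.3 and 38.5 CPM against 28.6 to 31.9 CPM with sufficient iron and 26.0 to 33.5 CPM with high iron (high-iron minus low-iron -0.42 ± 0.16, edgeR adjusted p = 0.384). Os9, a lectin of ER-associated degradation, was at 148, 125 and 133 CPM with low iron, 112, 111 and 119 CPM with sufficient iron and 100, 120 and 106 CPM with high iron. Its low-iron livers lay above all 6 others (high-iron minus low-iron -0.31 ± 0.11, edgeR adjusted p = 0.348).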

How the data were processed

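Liver RNA was extracted with RNeasy and sequenced on a HiSeq from Illumina TruSeq libraries, per the labels' protocols. The authors deposited raw read counts per gene symbol, 1 table per library. FastQC and 2 mouse builds (mm10, mm9, roles unstated) appear in the submitters' processing notes. No aligner, counter or strand setting is given in the sources used here. Library sizes exclude the 5 category rows, in which reads in no gene were 13.4% to 25.9% and ambiguous reads 0.477% to 0.917% of uniquely aligned reads.

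Tests used edgeR 4.0.16 (R 4.3.3, filterByExpr, TMM, robust quasi-likelihood, common biological coefficient of variation 0.177), checked on simulated data. Alternatives used DESeq2 1.42.0, limma 3.58.1 (voom), other scalings and filters, and each library left out. Libraries of 1 diet correlated at 0.973 to 0.989 (log2 CPM) and none was a duplicate; labels describe 3 mice per diet. The members, lists and tests were chosen with earlier results of these data known. Members shown with a value in every library were those called, the 6 with the lowest 3-group p per role group, and Eif2ak1, Atf4, Hspa5 and Xbp1; from each other list, the 3 with the lowest 3-group p. The promoter table held no entry for Eif4ebp1, Cars, Hars, Lars, Mars, Nars, Rars, Vars and Wars.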

Additional observations from a re-analysis of the deposited data

How the results depend on the processing

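Aars, the 1 member edgeR called, kept its sign in all 20 alternatives. Genes called in high-iron minus sufficient-iron livers (28) became 45 with no filter, 215 with DESeq2, 92 with limma-voom under sample weights, 63 without low-iron 1 and sufficient-iron 6, 17 without low-iron 1 and high-iron 12, 1208 at an unadjusted p under 0.05, and 0 to 56 with 1 library left out. In low-iron minus sufficient-iron livers (0) they became 105, 2, 1, 1 and 1458 with DESeq2, sample weights, either pair left out and the unadjusted p, and 0 to 1 with 1 library left out. In high-iron minus low-iron livers (66) they became 365, 378, 288, 31 and 1257 in the same order, and 0 to 112. In the 3-group test (28) they became 52 with no filter, then 413, 230, 192, 15 and 1395, and 0 to 68. Members called at an unadjusted p numbered 5, 2, 11 and 6 in these tests. In high-iron minus low-iron livers (1) they were 5 with DESeq2 (Aars, Calr, Hsp90b1, Mars and Trib3), 3 with sample weights (Aars, Calr and Hsp90b1), 0 with only the 6 libraries compared, 2 and 0 with the pairs left out (Aars and Hsp90b1 in the first), and 0 to 1 with 1 library left out. In the 3-group test (0) they were 3 with DESeq2, 2 with sample weights and 1 without low-iron 1 and sufficient-iron 6. The cause of these shifts was not tested. The ER median in high-iron minus sufficient-iron livers (-0.19) ranged from -0.28 to -0.0087 with 1 library left out and was -0.010 without low-iron 1 and high-iron 12. The ATF4-axis median in low-iron minus sufficient-iron livers (-0.00) ranged from -0.18 to 0.12, and in high-iron minus low-iron livers (0.15) from 0.070 to 0.41, with 0.33 under sample weights and 0.41 and 0.42 with the pairs left out. No paired analysis was made, because the labels state no pairing and the diets share no replicate numbers. The numbers do interleave the diets in order (1, 2 and 4, then 5, 6 and 8, then 9, 10 and 12). Whether this order reflects a pairing is not stated, and its part in the spread was not tested. Depth limits the genes near 1 CPM most: Asns, Chac1 and Psat1 had 11, 19 and 14 reads in their lowest libraries.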
